A study of Mus musculus with 12 samples.

Results

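To follow what high-dose interferon γ (IFNγ) adds to oxaliplatin (Oxali), 2 libraries titled with both agents (Combo2000) were compared with 2 libraries titled with Oxali alone, which makes 4 of the 12 RNA-seq libraries in the series. All were made from poly(A) RNA of Myc-CaP cells, an established prostate cancer cell line from male FVB/NJ mice that overexpresses Myc. The 4 libraries were chosen by their titles and share 48 h with 2 μM Oxali, a platinum drug that crosslinks DNA. Combo2000 also received 2000 pg of IFNγ, a dose that the labels give without a volume. Further groups of 2 are Ctrl with no agent, IFN2000 with 2000 pg of IFNγ alone, and Combo200 with Oxali and 200 pg of IFNγ. IFN200, titled with 200 pg of IFNγ alone, enters only the joint fit and the check of a second label. As a model it is 1 cell line in culture, without the immune cells of a tumour. Nothing in the labels says that the 2 libraries of a group came from separate cultures, so p-values measure only the spread between these libraries, which may be technical.

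IFNγ is the cytokine through which T cells and NK cells act on the cells they recognise. Its receptor carries the kinases JAK1 and JAK2, and the signal reaches short DNA elements called GAS. One of the genes switched on is Irf1, whose product binds a second element, the ISRE, so that the response runs in waves. Known targets include GTPases that attack vacuoles holding microbes, the immunoproteasome and peptide transporter that feed major histocompatibility complex (MHC) class I, chemokines that draw T cells, and the checkpoint ligand PD-L1.

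The titles and a second label, the agent, disagree for the single treatments: the 2 libraries titled Oxali carry the agent IFNg 2000pg, the 2 titled IFN200 carry Oxali 2uM, and the 2 titled IFN2000 carry IFNg 200pg. Levels are given as CPM, the counts of a library scaled to its size. Iigp1, a GTPase with almost no reads in cells without IFNγ, stood at 0 and 0.101 CPM in Ctrl, 0.0921 and 0.143 CPM in the libraries titled Oxali, 5.18 and 5.27 CPM in those titled IFN2000 and 91.0 and 99.4 CPM in Combo2000. The level in the libraries titled Oxali goes against their agent label, and the titles were used. With the libraries titled IFN200 in the place of Oxali, 4790 genes were called higher in Combo2000 and 4440 lower.

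The 4 libraries held 19899789 to 25931516 counts, so that 3 counts, the limit that a count of 0 allows, correspond to 0.111 to 0.143 CPM (a limit for counting error alone, as PCR copies of a molecule cannot be recognised without identifiers). Of 8 markers of the line, Myc, Hoxb13, Krt8 and Cldn4 were read in all 4 libraries, whereas the epithelial marker Epcam had no count and Krt18 and Cdh1 had at most 6. The summed level of 10 T cell markers was 1.24 to 1.94 CPM in the 4 libraries, with Cd3d, Cd3e, Cd8a and Gzmb at 0. In IFN2000 replicate 2 it was 15.1 CPM, against 0.446 CPM in replicate 3. Summed macrophage markers were 16.5 to 18.2 CPM, nearly all of it Cd14, with Adgre1, Itgam and Cd163 at 0, and fibroblast markers 32.9 to 40.5 CPM, nearly all Pdgfra and Pdgfrb, with Col3a1, Lum, Thy1 and Fap at 0. Oxali replicate 1 stood apart by ribosomal and other non-coding RNA: CT010467.1, a ribosomal RNA gene, had 3429 CPM there and 273 CPM in Oxali replicate 2, and the mitochondrial rRNA mt-Rnr2 had 420 and 140.0 CPM. The 2 Oxali libraries differed by a chi-square per degree of freedom of 8.73 and the 2 Combo2000 libraries by 3.39, where sampling noise alone would give about 1. In bulk RNA, fewer cells that express a gene and less of its RNA per cell cannot be told apart.

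Promoters of 6 genes are shown to set the DNA elements beside the measured changes: Gbp3 and Mpeg1 as markers of the comparison, Igtp and Gm12250 among the largest rises, Irf1 as the regulator, and Cd274, which encodes PD-L1. Each run holds 150 bases 5′ to 3′, from RefSeq on build GRCm38.p6, plus strand. It ends just before the RefSeq start of transcription, except for Gbp3. The Gbp3 run ends 18 bases further upstream, before a more upstream start in the gene annotation. For Gm12250 the annotated gene starts at 58187739, well downstream of the RefSeq start that its run precedes. Capitals mark the letters TTCNNNGAA (GAS) or GAAANNGAA (ISRE core) on either strand.
Gbp3, chr3:142559876-142560025: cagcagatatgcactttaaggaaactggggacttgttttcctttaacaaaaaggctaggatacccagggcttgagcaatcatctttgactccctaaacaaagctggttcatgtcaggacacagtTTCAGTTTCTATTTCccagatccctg
Mpeg1, chr19:12460620-12460769: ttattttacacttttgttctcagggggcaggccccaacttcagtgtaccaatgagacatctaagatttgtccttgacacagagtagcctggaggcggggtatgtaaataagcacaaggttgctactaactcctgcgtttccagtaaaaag
Igtp, chr11:58199406-58199555: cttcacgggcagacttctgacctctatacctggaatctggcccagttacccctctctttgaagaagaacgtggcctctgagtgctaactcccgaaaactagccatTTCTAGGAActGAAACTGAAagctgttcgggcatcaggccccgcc
Gm12250, chr11:58183693-58183842: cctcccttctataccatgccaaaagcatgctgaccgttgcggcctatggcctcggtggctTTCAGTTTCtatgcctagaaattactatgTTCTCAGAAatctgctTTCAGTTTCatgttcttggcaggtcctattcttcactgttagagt
Irf1, chr11:53769864-53770013: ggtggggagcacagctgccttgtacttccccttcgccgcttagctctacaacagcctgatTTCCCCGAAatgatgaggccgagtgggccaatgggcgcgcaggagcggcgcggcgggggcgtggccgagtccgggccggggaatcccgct
Cd274, chr19:29367288-29367437: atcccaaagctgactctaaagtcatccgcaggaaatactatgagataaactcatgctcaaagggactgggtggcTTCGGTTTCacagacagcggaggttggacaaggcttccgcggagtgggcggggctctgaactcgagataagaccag

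The Gbp3 run held 2 ISRE cores that overlap, and with the 18 bases not shown they begin 44 and 38 bases before the RefSeq start. Igtp had a GAS 45 bases before the start and an ISRE core 34 bases before it. Gm12250 held 1 GAS between 2 ISRE cores, Irf1 a single GAS 90 bases before the start, and Cd274 a single ISRE core 76 bases before the start. The Mpeg1 window held neither set of letters, which says only that they are not in this window. Over the 300 bases around each start (250 before, 50 after), 22.4% of the 434 RefSeq promoters of genes called higher in Combo2000 than in Oxali held an ISRE core, beside 7.07% of all 12272 promoters of tested genes and 3.85% of the 130 promoters of genes called lower. GAS letters were in 11.98%, 6.98% and 10.0% of these promoters. A match is a description of the sequence and not a binding site.

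Adding IFNγ to Oxali raised a set of genes by large factors and lowered few genes by more than a small amount. Of 13177 genes tested with edgeR's quasi-likelihood test, 444 were called higher in Combo2000 than in Oxali (3.37%) and 130 lower (0.987%), or 4.36% in either direction. A call is a Benjamini-Hochberg adjusted p under 0.05 over all genes tested. The rises were larger than the falls: 156 of the higher genes changed at least 2-fold, 89 at least 4-fold and 46 at least 16-fold, against 5 of the lower genes at least 2-fold (CT010467.1, mt-Rnr2, Rn7sk, Gm45592 and Sdr42e1). The median log2 fold change was 0.45 among the higher genes, -0.22 among the lower genes and 0.0029 over all genes tested. Without Oxali replicate 1, 312 genes were called higher and 47 lower. Without Oxali replicate 2 the counts were 275 and 63, without Combo2000 replicate 2 they were 307 and 59, and without Combo2000 replicate 3 they were 299 and 38, so that each library counted for the number of lower genes. A correction for transcript length and GC content gave 447 higher and 432 lower. The plot of change against level shows rises at low and high levels alike and most falls close to 0. In 17 of the 23 gene lists used here no member was called lower. With lists of this size a count of 0 lies near the 0.987% of all genes called lower. The 240 tested members of these 17 lists held 7 that were lower at an unadjusted p under 0.05, beside 805 of all 13177 genes. The 17 were picked for having no lower call, which favours a small number, so the 7 is no result about them. The lists were chosen with earlier results of these data known, so these counts carry no test.

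**Figure D1:**
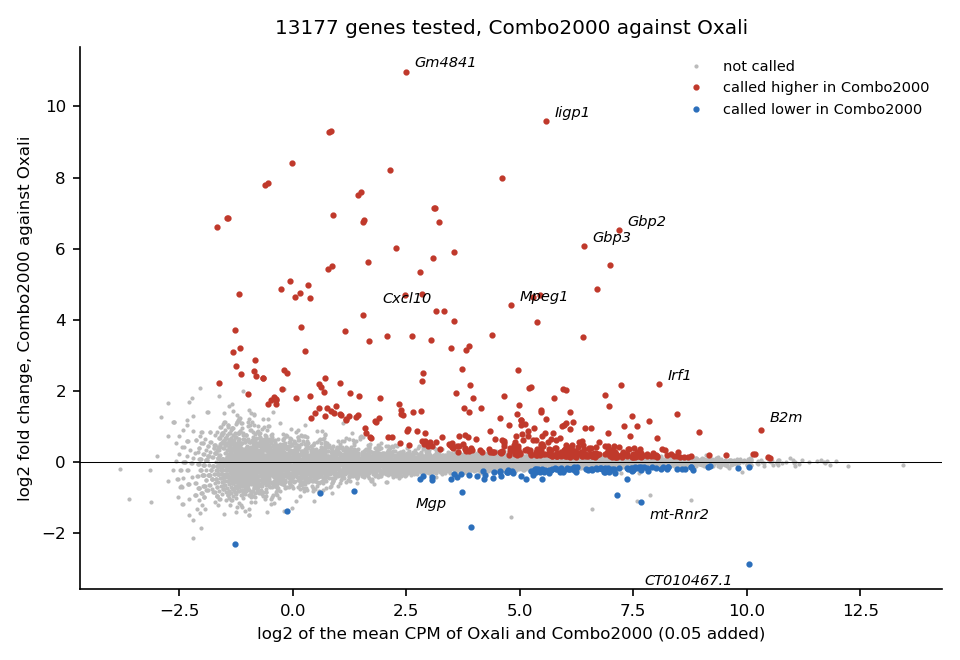
Change against level for 13177 genes: the x axis is the log2 of the mean CPM of Oxali and Combo2000 (0.05 added), the y axis the log2 fold change of Combo2000 against Oxali. Red points were called higher (444) and blue points lower (130) at an adjusted p under 0.05, grey points were not called, and fold changes of genes without counts in Oxali depend on the fit and are no bounds.

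The 3 markers of the comparison encode proteins of host defence. Iigp1 is an immunity-related GTPase that coats the vacuoles of intracellular pathogens. It had 2 and 3 counts in Oxali and 2456 and 2305 in Combo2000, a ratio of summed counts, scaled to library size, of 809 (95% interval 347 to 2494). Intervals of such ratios, here and below, hold counting error alone. They leave out the spread between libraries, which exceeded sampling noise in both groups, and are too narrow for the effect of IFNγ. Gbp3, a guanylate-binding protein, read 2.40 and 2.58 CPM in Oxali and 168 and 169.9 CPM in Combo2000, a log2 fold change of 6.08 (SE 0.070, edgeR adjusted p 4.51e-22), where SE is the standard error. Mpeg1 encodes perforin-2, a pore-forming protein best known from macrophages, and read 2.49 and 2.48 CPM in Oxali and 51.9 and 54.4 CPM in Combo2000, a log2 fold change of 4.42 (SE 0.13, edgeR adjusted p 1.03e-15). For each, both Combo2000 libraries lay far above both Oxali libraries and close to each other. The macrophage markers, which summed to 16.4 and 17.2 CPM in Oxali, summed to 16.9 and 18.1 CPM in Combo2000. Nearly all of that sum is Cd14, so it says little about other macrophage genes, and which cells gave the Mpeg1 reads was not tested.

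The receptor and its kinases were not called, while Stat2, Irf9 and Stat3 were. Ifngr1 and Ifngr2, which encode the 2 receptor chains, changed by 0.027 (SE 0.048) and 0.23 (SE 0.16) on the log2 scale, and the kinase genes Jak1 and Jak2 by 0.065 (SE 0.041) and -0.058 (SE 0.035). Stat2 and Irf9, parts of the complex that binds ISREs, rose by 1.03 (SE 0.053) and 2.08 (SE 0.067). Stat3, better known downstream of interleukin 6, read 58.8 and 57.9 CPM in Oxali and 116 and 112 CPM in Combo2000, a log2 fold change of 0.97 (SE 0.042).

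Genes that restrain the response rose as well, though not all of them. Socs1, which blocks JAK kinases, read 2.35 and 2.48 CPM in Oxali and 11.6 and 12.03 CPM in Combo2000 and rose by 2.28 (SE 0.15). Il18bp, a decoy that binds interleukin 18, rose by 3.55 (SE 0.19) from 1.24 and 0.668 CPM to 11.1 and 11.51 CPM. Usp18, which removes the ubiquitin-like ISG15 and dampens type I interferon signalling, and the antibody receptor and ubiquitin ligase Trim21 rose by 1.36 (SE 0.15) and 1.505 (SE 0.090). The other 7 of the 11 tested were not called, among them Socs3 at 0.21 (SE 0.073) and the phosphatase gene Ptpn2 at 0.054 (SE 0.059).

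Among the interferon regulatory factors, 4 of 7 tested were called higher, beside 3.37% of all genes. Irf1 read 96.3 and 94.1 CPM in Oxali and 432 and 445 CPM in Combo2000, and its gain in CPM was among the 5 largest of all called genes. Its log2 fold change was 2.20 (SE 0.043, edgeR adjusted p 1.54e-18), and both Combo2000 libraries lay above 430 CPM where neither Oxali library reached 100. Irf8, known from myeloid cells, rose from 0.829 and 0.477 CPM to 7.48 and 7.93 CPM, by 3.54 (SE 0.25). Irf7, the amplifier of type I interferon, rose by 1.44 (SE 0.13), and Irf2, which competes with IRF1 for its sites, by 0.38 (SE 0.044). Irf3 and Irf4 were not called, and Irf5 had at most 5 counts in any of the 4 libraries.

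The 2 GTPase families had the largest median changes of the 23 lists. All 11 guanylate-binding proteins (GBPs) were tested and all 11 were called higher, with a median log2 fold change of 6.53 beside 3.37% called higher over all genes. With the 2 genes that had no count in Oxali at their lower bound the median was 4.88. These 2, Gbp10 with 1 count in Oxali and Gbp5 with 2 and 6 passed the filter on the counts of other groups. They could hardly be called lower, so the 11 of 11 is in part fixed by the filter. GBPs assemble on pathogen vacuoles and on bacteria in the cytosol. Gbp2 read 3.36 and 2.86 CPM in Oxali and 286 and 293 CPM in Combo2000, a log2 fold change of 6.53 (SE 0.080, edgeR adjusted p 8.94e-22). Gbp5, which also promotes inflammasome assembly, read 0.0921 and 0.286 CPM in Oxali and 51.6 and 46.0 CPM in Combo2000, and Gbp7 read 3.27 and 2.81 CPM in Oxali and 76.2 and 75.1 CPM in Combo2000. Gbp6 and Gbp8 had no count in either Oxali library while Gbp6 had 34 and 30 and Gbp8 33 and 28 in the Combo2000 libraries. They were at least 18.1-fold and 17.3-fold higher, against 3 counts over the group. For Gbp10, with 1 count in Oxali, the ratio of summed counts was 369.8 (95% interval 66.0 to 14640.0). In the annotation the genes lie in 2 clusters. Gbp2, Gbp2b, Gbp3, Gbp5 and Gbp7 are on chromosome 3 between 142493978 and 142638008, and the other 6 are on chromosome 5 between 105014150 and 105346472 (GRCm38). Gbp4, Gbp8 and Gbp9 overlap there, and Gbp2 and Gbp2b are close copies, so the share of each in the reads is uncertain.

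Of 14 immunity-related GTPases (IRGs), 13 were tested and all 13 were called higher, beside 3.37% of all genes (median log2 fold change 5.55). The other, Gm5431, had 3 and 1 counts in Oxali and 6 and 9 in Combo2000. Of the 13, 2 had no count in Oxali and passed the filter on other groups, so they could not be called lower. Iigp1, Gm12250 and Tgtp2, with at most 4 counts in an Oxali library, also passed on other groups and could hardly be called lower. The 13 of 13 is thus in part fixed by the filter. IRGs load onto the vacuoles of intracellular parasites, where regulators of the IRGM type keep the effectors in check. The regulator Irgm1 read 55.4 and 54.1 CPM in Oxali and 245 and 248 CPM in Combo2000 and rose by 2.17 (SE 0.045), Irgm2 rose by 4.85 (SE 0.069) and Igtp, or Irgm3, by 5.55 (SE 0.073) from 5.07 and 5.44 CPM to 247 and 246 CPM. Gm4841 had no count in Oxali and was at least 159-fold higher at 315 and 247 counts. Gm12250 had 3 and 2 counts in Oxali and 457 and 411 in Combo2000. Igtp and Irgm2 overlap in the annotation, and Tgtp1 and Tgtp2 are near-identical copies, so their values of 2.59 (SE 0.079) and 6.76 (SE 0.20) on the log2 scale carry that uncertainty.

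**Figure D2:**
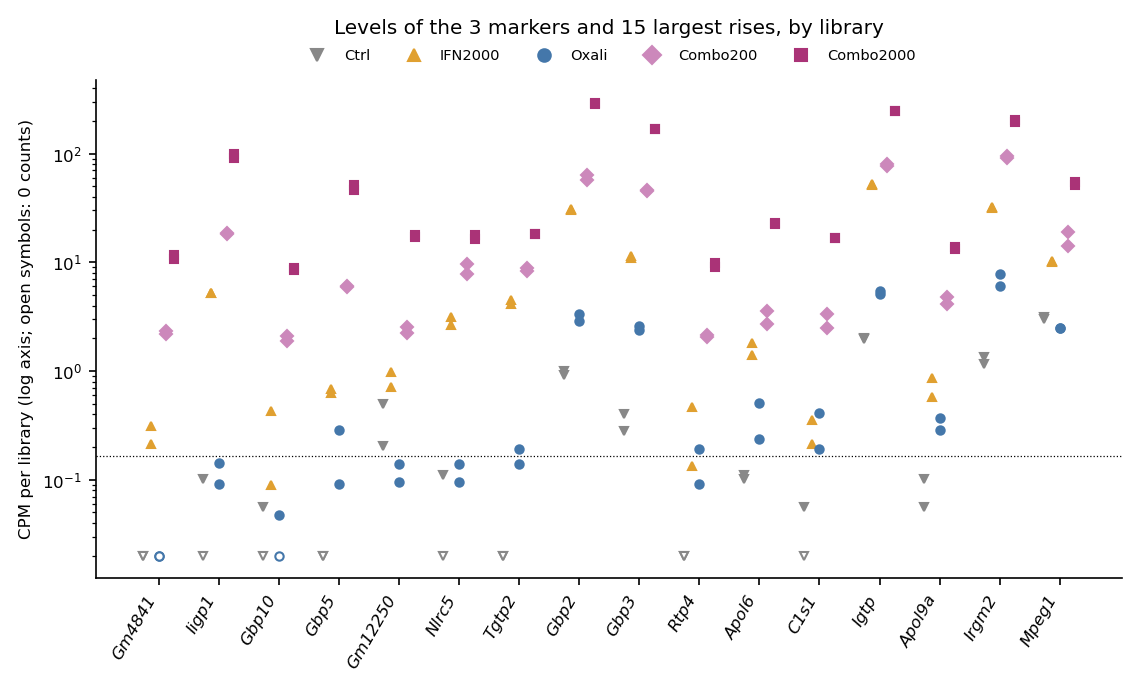
CPM per library on a log axis for the 3 markers and the 15 largest rises (16 genes), with both libraries of Ctrl, IFN2000, Oxali, Combo200 and Combo2000. Open symbols at the bottom had 0 counts, the dotted line is the largest 3-count limit of any library (0.167 CPM), and for every gene shown both Combo2000 libraries lie above all others plotted.

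Genes of MHC class I presentation rose with few exceptions: 18 of 23 tested were called higher, beside 3.37% of all genes (median log2 fold change 1.29). None was called lower, which in 23 genes lies near the 0.987% of all genes called lower. The immunoproteasome subunits Psmb8, Psmb9 and Psmb10, which replace the standard catalytic subunits, rose by 3.58 (SE 0.10), 4.69 (SE 0.082) and 1.88 (SE 0.050). Psmb9 read 3.04 and 3.44 CPM in Oxali and 84.4 and 82.8 CPM in Combo2000. The activator subunits Psme1 and Psme2 rose by 1.00 (SE 0.044) and 1.14 (SE 0.041). The peptide transporter genes Tap1 and Tap2 rose too. Tap1 read 4.42 and 5.87 CPM in Oxali and 79.3 and 76.8 CPM in Combo2000, and Tap2 read 26.0 and 24.6 CPM in Oxali and 101 and 105 CPM in Combo2000. Psmb9 and Tap1 overlap in the annotation. Tapbp, which encodes tapasin, the chaperone that holds class I at the transporter, had one of the 5 largest gains in CPM, from 204 and 197 to 506 and 509.8 CPM (log2 fold change 1.34, SE 0.037).

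The class I molecules themselves changed by smaller factors from higher levels. B2m, the shared light chain, had the largest gain in CPM of all called genes, from 892 and 897 to 1622 and 1702 CPM (log2 fold change 0.89, SE 0.037, edgeR adjusted p 3.19e-13). H2-D1 read 366 and 341 CPM in Oxali and 629.5 and 643 CPM in Combo2000. H2-K1 read 105 and 99.3 CPM in Oxali and 250.2 and 251 CPM in Combo2000. FVB mice carry other H2 alleles than the reference and these genes resemble each other, so their counts are uncertain. Nlrc5, the factor that drives class I genes, rose from 3 and 2 counts to 485 and 379 counts, a ratio of summed counts of 147 (95% interval 62.7 to 454). The endoplasmic reticulum chaperones Calr, Canx and Pdia3 were not called, with Calr at 0.12 (SE 0.037) and Pdia3 at 0.064 (SE 0.036). Sec22b, a vesicle protein linked to cross-presentation, stood at 69.4 and 68.5 CPM in Oxali and 68.2 and 67.5 CPM in Combo2000.

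Of class II presentation, the regulator and the invariant chain rose while the chains themselves had few reads. Ciita, the regulator that class II genes need, had 0 and 2 counts in Oxali and 48 and 41 in Combo2000. Cd74, the invariant chain, read 1.43 and 1.34 CPM in Oxali and 14.7 and 15.2 CPM in Combo2000 (log2 fold change 3.43, SE 0.18). The class II chains H2-Aa and H2-Ab1 had no count in Oxali. In the Combo2000 libraries H2-Aa had 11 and 4 counts and H2-Ab1 had 2 and 2, and H2-Eb1 had none in any of the 4 libraries. These 3 were below the filter and were not tested. Of the 11 class II genes, 5 were tested, 2 called higher and none lower, beside 3.37% and 0.987% of all genes. Ciita passed the filter on other groups and could hardly be called lower. The peptide editors H2-DMa and H2-DMb1 stood at 0.25 (SE 0.19) and 0.27 (SE 0.23) on the log2 scale without a call.

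**Figure D3:**
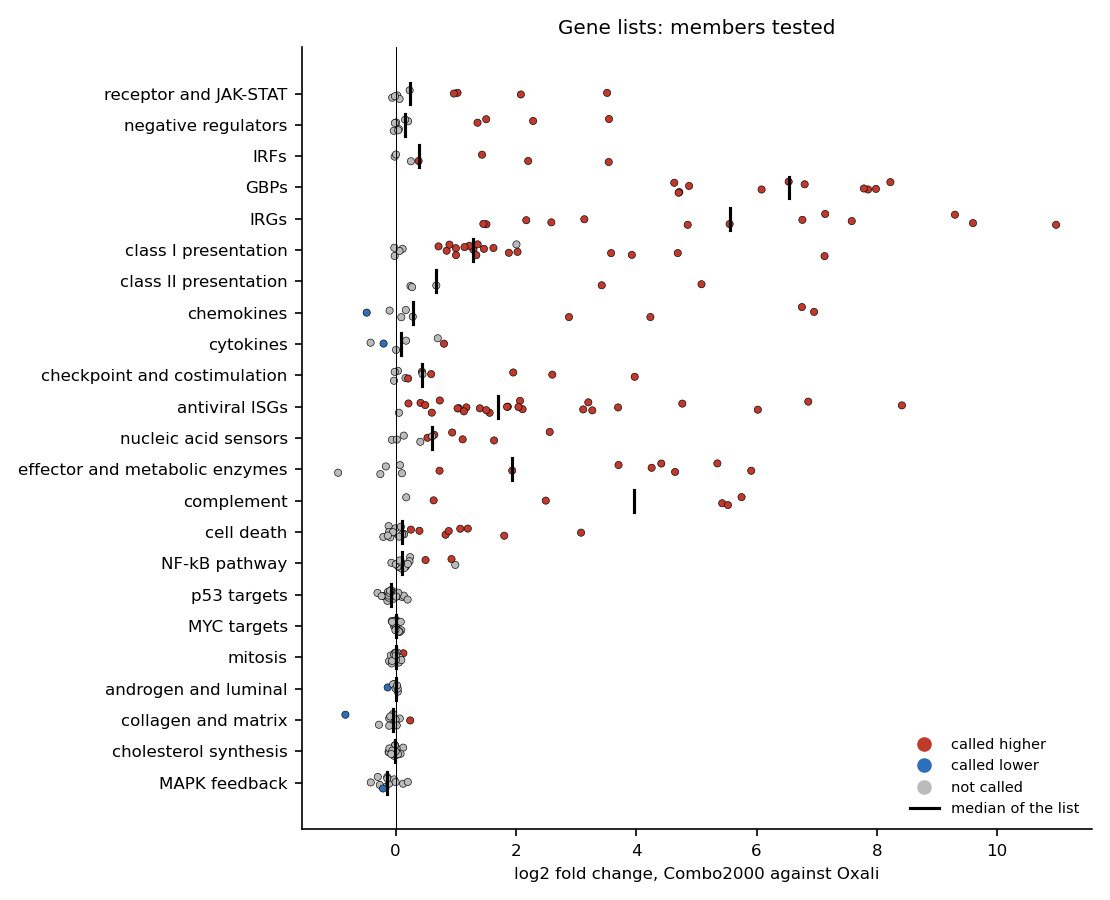
Log2 fold change of Combo2000 against Oxali (x axis) for the tested members of 23 gene lists (rows): each point is a gene, red called higher, blue called lower, grey not called, and the black bar is the list's median. GBPs and IRGs lie furthest to the right, with medians of 6.53 and 5.55, and the MYC, mitosis and cholesterol lists scatter around 0.

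Ligands of CXCR3, the receptor on activated T cells, rose from near 0. Cxcl10 read 0.829 and 0.954 CPM in Oxali and 16.6 and 17.2 CPM in Combo2000, a log2 fold change of 4.23 (SE 0.17, edgeR adjusted p 1.37e-13). Cxcl9 went from 0 and 1 counts to 93 and 87 counts, a ratio of summed counts of 153 (95% interval 27.1 to 6077). Cxcl11 went from 1 and 1 to 146 and 137 counts, a ratio of 120.3 (95% interval 33.0 to 998). All 3 had both Combo2000 libraries far above both Oxali libraries, though the levels of Cxcl9 and Cxcl11 rest on few counts.

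Other chemokines were mixed. Ccl9, a chemokine that attracts myeloid cells, fell by 0.48 (SE 0.060) on the log2 scale, from 50.5 and 53.7 to 36.9 and 37.8 CPM. Cxcl1, Cxcl5, Ccl25 and Cx3cl1 were not called. Ccl5, which attracts T cells, had 2 and 3 counts in the Oxali libraries and 20 and 25 in the Combo2000 libraries and was called higher at 2.88 (SE 0.57). Its call was lost without either Oxali library and without Combo2000 replicate 3 (adjusted p up to 0.126). Of the 16 chemokines listed, 9 were tested, 4 called higher and 1 lower, beside 3.37% and 0.987% of all genes. Cxcl9, Cxcl11 and Ccl5 had few counts in Oxali, passed the filter on other groups and could hardly be called lower. Cxcl12, Ccl7, Ccl8 and Ccl20 had no count in the 4 libraries.

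Of 16 cytokines, 6 were tested, and Csf1 and Il33 were called, beside 4.36% of all genes called in either direction. Csf1, the growth factor of macrophages, read 86.1 and 92.2 CPM in Oxali and 154 and 157 CPM in Combo2000 and rose by 0.80 (SE 0.043). Il33, an alarmin, fell by 0.20 (SE 0.050), from 122 and 117 to 101 and 107 CPM, and lost its call without any 1 of the 4 libraries (adjusted p up to 0.270). Lif, Tgfb1, Il18 and Csf3 were not called. Il6, Il15, Ifnb1 and Ifng had no count in any of the 4 libraries, which at this depth allows up to 0.111 to 0.143 CPM.

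Among checkpoint ligands and costimulators 6 of 11 tested were called higher and none lower, beside 3.37% and 0.987% of all genes (median log2 fold change 0.44). Cd274, which encodes PD-L1, read 3.64 and 3.82 CPM in Oxali and 23.01 and 22.3 CPM in Combo2000 (log2 fold change 2.60, SE 0.13, edgeR adjusted p 5.47e-12). Ido1, an enzyme that depletes tryptophan, rose from 1.52 and 1.24 to 21.6 and 22.1 CPM, by 3.97 (SE 0.12). Tnfrsf14, Icam1, Lgals9 and Cd47, a signal that holds off phagocytes, rose by 1.95 (SE 0.29), 0.59 (SE 0.14), 0.44 (SE 0.048) and 0.21 (SE 0.042). The call of Icam1 was lost without any 1 of the 4 libraries and that of Cd47 without Oxali replicate 1 or Combo2000 replicate 2, with an adjusted p of up to 0.161 and 0.111. Pdcd1lg2, which encodes PD-L2, had 1 count in the 4 libraries together, and Cd86 and Cd40 had none.

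Antiviral genes better known as targets of type I interferon rose almost without exception. Of 32 listed, 26 were tested, 25 were called higher and none lower, beside 3.37% and 0.987% of all genes (median log2 fold change 1.71). Of the 26, 2 had no count in Oxali and passed the filter on other groups, so they could not be called lower. Rtp4, with 2 and 4 counts in Oxali, also passed on other groups and could hardly be called lower. Bst2, which tethers budding virus, read 63.5 and 62.1 CPM in Oxali and 184 and 187 CPM in Combo2000, and Ifitm3, which blocks virus entry, read 13.8 and 14.6 CPM in Oxali and 59.8 and 62.5 CPM in Combo2000. Parp14 and its relative Parp9, of a family that modifies proteins with ADP-ribose, rose by 2.04 (SE 0.058) and 1.40 (SE 0.044). Dtx3l rose by 1.13 (SE 0.053). Oasl2, Xaf1 and Rtp4 rose by 3.27 (SE 0.13), 3.20 (SE 0.13) and 6.02 (SE 0.31). Isg15, the ubiquitin-like modifier, rose by 1.05 (SE 0.082) from 17.7 and 17.7 to 35.2 and 38.2 CPM. The member not called was Ifit2 at 0.054 (SE 0.050), whereas Ifit1, Ifit3 and Ifit3b rose by 1.86, 1.85 and 2.07 from 0.783 and 0.286, 1.24 and 1.097 and 0.230 and 0.382 CPM in Oxali. Without 1 library the adjusted p of Ifit1 reached 0.122 and that of Ifit3b 0.215.

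Of 15 nucleic acid sensors 11 were tested and 6 called higher, beside 3.37% of all genes. Ddx58, which encodes the RNA sensor RIG-I, read 47.4 and 46.5 CPM in Oxali and 90.9 and 89.0 CPM in Combo2000 (log2 fold change 0.94, SE 0.048), and the endosomal RNA receptor Tlr3 rose by 0.64 (SE 0.052). Tmem173, which encodes STING, was called at 0.53 (SE 0.15, edgeR adjusted p 0.0482), and its call was lost without any 1 of the 4 libraries (adjusted p up to 0.308) and under RLE or upper-quartile scaling, the length and GC correction or DESeq2. Cgas, the DNA sensor upstream of STING, was not called at 0.13 (SE 0.061), nor was the adaptor Mavs.

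Of 16 effector and metabolic enzymes 13 were tested, and 8 were called higher, with Mpeg1 above, beside 3.37% of all genes. Apol9a and Nos2 had few counts in Oxali, passed the filter on other groups and could hardly be called lower. Apol6 and Apol9a, apolipoproteins L induced by interferon, rose by 5.91 (SE 0.19) and 5.35 (SE 0.22). Apol9a and Apol9b are near-identical and share reads. Xdh, xanthine dehydrogenase of purine breakdown, read 5.85 and 4.10 CPM in Oxali and 17.97 and 20.4 CPM in Combo2000 and rose by 1.94 (SE 0.12). Wars, the tryptophanyl-tRNA synthetase, read 129.8 and 128 CPM in Oxali and 209 and 218 CPM in Combo2000 and rose by 0.73 (SE 0.040). Nos2, the inducible nitric oxide synthase, had 1 and 2 counts in Oxali and 51 and 44 in Combo2000, a ratio of summed counts of 26.9 (95% interval 8.94 to 133). Gch1 and Ncf1, which serve nitric oxide and superoxide synthesis, were not called.

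In the complement list 5 of 6 tested genes were called higher, beside 3.37% of all genes, and 9 of 15 listed were below the filter. C1s1 and C4b had few counts in Oxali, passed the filter on other groups and could hardly be called lower. The 5 of 6 is thus in part fixed by the filter. C1s1 and C1ra encode proteases that open the classical pathway. C1s1 read 0.415 and 0.191 CPM in Oxali and 16.8 and 16.6 CPM in Combo2000, and C1ra read 2.03 and 2.34 CPM in Oxali and 12.3 and 12.4 CPM in Combo2000. C4b, the next component, had 0 and 3 counts in Oxali and 95 and 80 in Combo2000. C3, where the pathways meet, was already read at 43.7 and 43.1 CPM in Oxali and rose by 0.63 (SE 0.066) to 71.4 and 62.8 CPM.

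Of the cell death genes some rose and most were not called. Of 21 tested, 8 were called higher and none lower, beside 3.37% and 0.987% of all genes, with a median log2 fold change of 0.11. Those called include Casp12 and Casp4, inflammatory caspases, at 1.80 (SE 0.090) and 3.08 (SE 0.63). Gsdmd, the pore protein that the caspase of Casp4 can cleave, was called at 0.88 (SE 0.15). Mlkl, the executor of necroptosis, read 32.5 and 35.6 CPM in Oxali and 61.1 and 59.9 CPM in Combo2000. The death ligand Tnfsf10 (TRAIL) and the receptor Fas rose by 1.07 (SE 0.066) and 1.20 (SE 0.25). Leaving out 1 library ended the calls of Casp4 and Fas, whose adjusted p reached 0.141 and 0.199. The proapoptotic Bak1 and Bid rose by 0.39 (SE 0.051) and 0.25 (SE 0.043). The TRAIL receptor gene Tnfrsf10b, Casp8, Bax, Bcl2, Bcl2l1 and Mcl1 were not called, with log2 fold changes between -0.11 and 0.13.

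The counts of the lists outside the interferon response are read against the 3.37% of all genes called higher and the 0.987% called lower. In the NF-κB pathway 3 of 17 tested genes were called higher, Nfkb2 at 0.17 (SE 0.040), Nfkbie at 0.50 (SE 0.082) and the adhesion molecule Vcam1 at 0.93 (SE 0.15). The call of Nfkb2 was lost without either Oxali library and without Combo2000 replicate 2 (adjusted p up to 0.147). Rel, Rela, Nfkb1 and the feedback inhibitor Nfkbia were not called. Of 18 p53 targets tested, Pmaip1, which encodes NOXA, fell by 0.20 (SE 0.039) and none was called higher. Its call was lost without Oxali replicate 2 and without Combo2000 replicate 3 (adjusted p up to 0.0901). Cdkn1a and Mdm2 stood at 0.056 (SE 0.051) and 0.11 (SE 0.044). None of 20 MYC targets was called by edgeR, by DESeq2 or under RLE or upper-quartile scaling, and 2 had an unadjusted p under 0.05, beside 14.9% of all genes. Of 20 mitosis genes Top2a was called, at 0.13 (SE 0.029), and its adjusted p without 1 library reached 0.111. Of 16 cholesterol synthesis genes edgeR called none and 2 had an unadjusted p under 0.05. With lists of this size, counts of 0 or 1 called lie near the background and say nothing particular to these lists. Mvk, mevalonate kinase, stood at -0.12 (SE 0.082).

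Calls in the lists of the prostate lineage, the matrix and MAPK feedback were 1 of 8, 2 of 12 and 1 of 12 tested, beside 4.36% of all genes called in either direction. The androgen target Fkbp5 fell by 0.13 (SE 0.036) and lost its call without any 1 of the 4 libraries (adjusted p up to 0.299). Pbsn, another androgen target, had no count in the 4 libraries. Of the matrix genes, the protease inhibitor Timp1 rose by 0.24 (SE 0.039) and Mgp fell. Among MAPK feedback genes Phlda1 was called lower at -0.21 (SE 0.058), a call lost without Oxali replicate 1 or either Combo2000 library (adjusted p up to 0.428), and Etv4 and Dusp6 were at -0.41 (SE 0.12) and -0.14 (SE 0.052) without a call.

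Of the 5 genes called lower by at least 2-fold, CT010467.1 and mt-Rnr2 are ribosomal RNA and the other 3 were chosen for their size after their values were seen. Rn7sk, a small nuclear RNA, read 40.9 and 6.35 CPM in Oxali and 7.19 and 6.08 CPM in Combo2000, and without Oxali replicate 1 its log2 fold change was 0.074 in place of -1.83. Gm45592 and Sdr42e1 had low levels, at 0.783 and 0.429 CPM in Oxali and 0.148 and 0.0862 CPM in Combo2000 for the first and 1.24 and 1.24 CPM in Oxali and 0.445 and 0.517 CPM in Combo2000 for the second. The 3 calls were lost without Oxali replicate 1 or either Combo2000 library, and that of Sdr42e1 also without Oxali replicate 2 (adjusted p up to 0.949, 0.336 and 0.190). The genes that follow fell less than 2-fold. Mgp, an inhibitor of calcification, read 18.1 and 15.7 CPM in Oxali and 10.0 and 8.84 CPM in Combo2000, a log2 fold change of -0.84 (SE 0.10, edgeR adjusted p 1.44e-05). Ulbp1, a ligand of the activating NK cell receptor NKG2D, fell by 0.49 (SE 0.056) from 39.8 and 41.8 to 29.6 and 28.6 CPM. S100a4, a calcium-binding protein linked to cell motility, fell by 0.48 (SE 0.093), and Msrb2, a methionine sulfoxide reductase, had a log2 fold change of -0.47 (SE 0.089). Ypel3 stood at -0.52 (SE 0.12). Malat1, a nuclear non-coding RNA, read 193 and 192 CPM in Oxali and 149 and 128 CPM in Combo2000, and the keratin Krt79 read 1.80 and 2.00 CPM in Oxali and 1.07 and 0.991 CPM in Combo2000. In these 7 genes, named by a rule that asks for it, both Combo2000 libraries lay below both Oxali libraries. Padi2, a peptidylarginine deiminase, and Scd2, a fatty acid desaturase, had among the 5 largest losses in CPM with log2 fold changes of -0.16 (SE 0.037) and -0.13 (SE 0.032). Leaving out 1 of the 4 libraries ended the calls of S100a4, Ypel3, Malat1, Krt79, Padi2 and Scd2 (adjusted p up to 0.119, 0.157, 0.399, 0.222, 0.269 and 0.289), and left those of Mgp, Ulbp1, Ccl9 and Msrb2 in place. Of 106 called genes named here from the rule or the lists, 83 kept their call without each of the 4 libraries in turn.

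The ribosomal falls rest on Oxali replicate 1. CT010467.1 read 3429 and 273 CPM in Oxali and 285 and 218 CPM in Combo2000, so that without replicate 1 its log2 fold change was -0.11 (adjusted p 0.912) in place of -2.88. Leaving out Oxali replicate 2 gave -3.77. For mt-Rnr2 and mt-Rnr1 the values without Oxali replicate 1 were -0.12 and -0.16, in place of -1.12 and -0.92, and neither was called. The calls of CT010467.1, mt-Rnr2 and mt-Rnr1 were also lost without either Combo2000 library. Mgp and Ulbp1 without Oxali replicate 1 stood at -0.72 (adjusted p 0.00205) and -0.52 (adjusted p 1.04e-04).

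**Figure D4:**
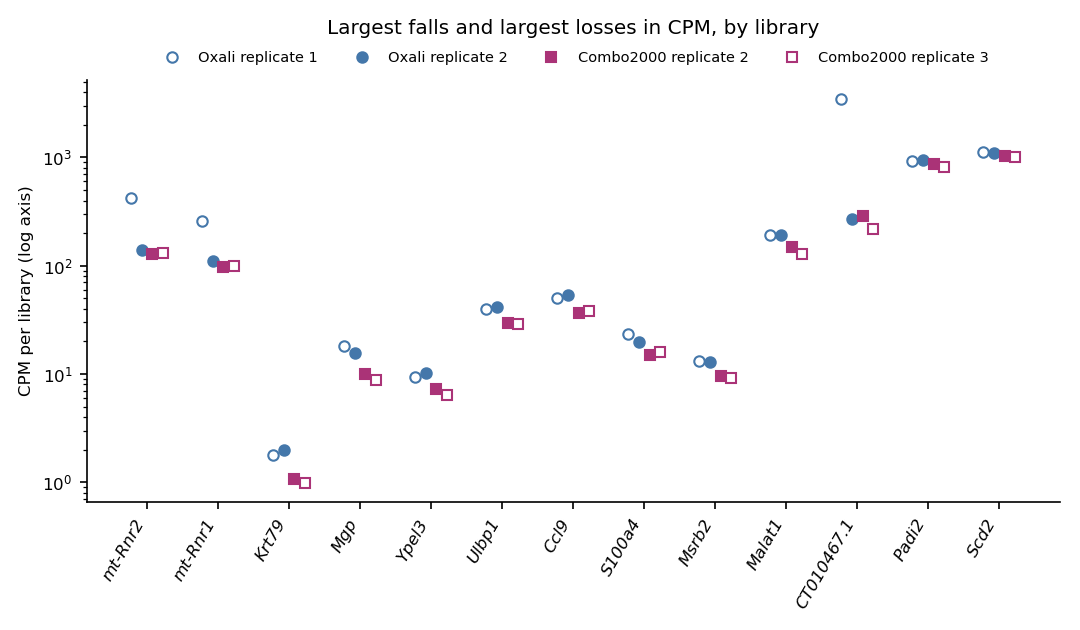
CPM per library on a log axis for the 10 largest falls and the largest losses in CPM (13 genes), with the 2 Oxali libraries as circles (open, replicate 1) and the 2 Combo2000 libraries as squares (open, replicate 3). For mt-Rnr2, mt-Rnr1 and CT010467.1 Oxali replicate 1 stands alone above the other 3 libraries, while Mgp falls from 18.1 and 15.7 to 10.0 and 8.84 CPM.

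To see whether the response to IFNγ differs when Oxali is present, the change was set beside that of IFN2000 against Ctrl, which uses other libraries. In IFN2000 against Ctrl 1105 genes were called higher (8.39%) and 1116 lower (8.47%). Leaving out 1 of these 4 libraries gave 325 higher and 321 lower without Ctrl replicate 1, 673 and 544 without Ctrl replicate 2, 449 and 397 without IFN2000 replicate 2, and 1670 and 1294 without IFN2000 replicate 3. Of the 444 genes higher in Combo2000 than in Oxali, 171 were also called higher with IFNγ alone (38.5% of the 444 and 15.5% of the 1105), 9 lower and 264 not called. Of the 130 lower genes 75 were also lower with IFNγ alone (57.7% of the 130 and 6.72% of the 1116). The test of the difference itself, the interaction, was positive for 280 genes (2.12%) and negative for 79 (0.600%), where positive means a higher log2 change with Oxali. With upper-quartile scaling the split was 216 to 150 and with the length and GC correction 300 to 310. Without IFN2000 replicate 2, the library with T cell reads, it was 159 to 39. Over the 8 libraries left out in turn it ran from 90 positive without Ctrl replicate 1 to 636 without IFN2000 replicate 3, and from 12 negative without Ctrl replicate 1 or Combo2000 replicate 2 to 399 without IFN2000 replicate 3. Log ratios of IFN2000 replicates 2 and 3 against Ctrl went down with gene length (Spearman's rho -0.378 and -0.197 across genes, which are not independent), those of Combo2000 replicates 2 and 3 against Oxali less so (0.0125 and -0.187).

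In the class I list 10 of 23 members had a positive interaction and in the antiviral list 14 of 26, with none negative, beside 2.12% positive over all genes. These counts were the same under upper-quartile scaling and the length and GC correction, and DESeq2 gave 9 and 10. Leaving out 1 of the 8 libraries gave 7 (without Ctrl replicate 1) to 10 in the class I list and 9 (without Ctrl replicate 2) to 14 in the antiviral list. B2m changed by 0.14 with IFNγ alone and by 0.89 with Oxali present, an interaction of 0.76 (SE 0.052, edgeR adjusted p 3.16e-08). Stat2 changed by 0.10 and 1.03. Xdh stood at 4.17 and 4.26 CPM in Ctrl and 3.30 and 3.35 CPM in IFN2000, a log2 fold change of -0.34 (SE 0.18) where it was 1.94 with Oxali. Cd274 stood at 1.84 and 1.42 CPM in Ctrl and 3.30 and 1.88 CPM in IFN2000. Of the GBPs Gbp2 alone was called, at 1.53 (SE 0.30, edgeR adjusted p 0.00827), and not without Ctrl replicate 1 or 2, and of the IRGs 4 of 13 were. Under the same minimum mean level the 5 largest were Gm12250 at 5.85 (SE 0.71, edgeR adjusted p 4.62e-05), Cxcl10 at 3.22 (SE 0.79, edgeR adjusted p 0.0329), Mpeg1 at 2.68 (SE 0.26, edgeR adjusted p 2.53e-06), Il18bp at 2.55 (SE 0.33) and Xdh at 2.28 (SE 0.22). The call of Cxcl10 was lost without Ctrl replicate 1 or 2, IFN2000 replicate 2, Oxali replicate 1 or 2 or Combo2000 replicate 2 (adjusted p up to 0.447), while the other 4 kept theirs without each of the 8 libraries. Psmb9 and Psmb8 rose by 5.55 and 4.70 with IFNγ alone and had interactions of -0.86 (SE 0.36) and -1.11 (SE 0.44), which were not called.

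The 5 genes with the largest negative interactions, among genes whose mean over all libraries reached 1 log2 CPM, were picked for this difference. Of the 5, Krt79 alone was called in Combo2000 against Oxali, and the libraries of Bc1 and of Col16a1 overlapped there. Each of the 5 interactions lost its call without at least 1 of the 8 libraries, Krt79 without 1 of them and Col16a1 without 6. Bc1, a neuronal non-coding RNA, and Col16a1, a collagen, had interactions of -1.42 (SE 0.31) and -1.19 (SE 0.31). Col16a1 read 1.22 and 1.37 CPM in Ctrl and 2.57 and 2.32 CPM in IFN2000, but 5.99 and 7.54 CPM in Oxali and 6.04 and 5.04 CPM in Combo2000. Aldh1l2 and Pycr1, mitochondrial enzymes of folate and proline metabolism, had interactions of -0.86 (SE 0.19) and -0.72 (SE 0.16), and Krt79 of -1.30 (SE 0.27). Pycr1 read 11.7 ± 0.32 CPM (SD, n = 2) in Ctrl, 15.9 and 16.5 CPM in IFN2000 and 4.70 and 4.58 CPM in Oxali and 3.78 and 4.01 CPM in Combo2000. Where a gene is near 0 in Ctrl the SE can be wide, as for Iigp1. Its interaction of 3.12 had an SE of 1.40 and was not called (edgeR adjusted p 0.262).

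**Figure D5:**
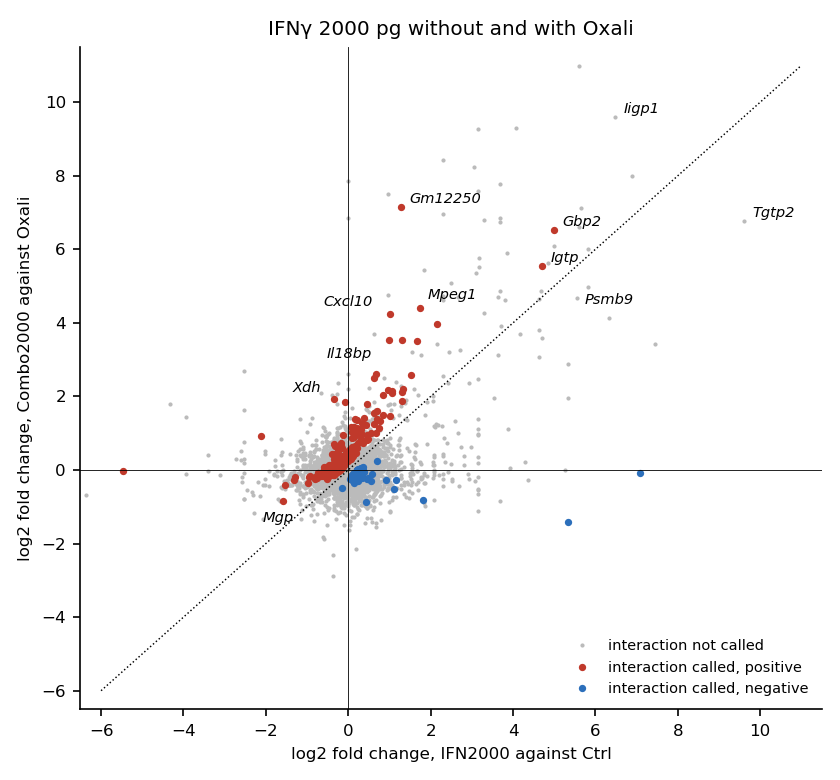
Log2 fold change of IFN2000 against Ctrl (x axis) and of Combo2000 against Oxali (y axis) for 13177 genes, with the dotted line where both are equal. Red points have a called positive interaction (280) and blue points a called negative one (79). Mpeg1, Gm12250 and Cxcl10 lie well above the line, and values of genes without counts in a group depend on the fit.

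The dose of IFNγ was followed with Oxali held constant. Combo2000 was called higher than Combo200 for 159 genes (1.21%) and lower for 22 (0.167%). With the length and GC correction the counts were 194 and 72, and leaving out 1 of the 4 libraries gave 105 to 112 higher and 2 to 5 lower. All 11 GBPs were called higher at the high dose, and so were 11 of 13 IRGs. Gbp2 read 57.4 and 63.2 CPM with 200 pg and 286 and 293 CPM with 2000 pg. Irf1 read 258 and 254 CPM in Combo200, between its levels in Oxali and Combo2000. Cxcl10 read 2.14 and 2.40 CPM in Combo200 against 16.6 and 17.2 in Combo2000, a log2 fold change of 2.89 (SE 0.13, edgeR adjusted p 1.04e-11). Cd274 moved by 1.45 (SE 0.11) over the same step. B2m and Tapbp, of class I presentation, moved by 0.36 (SE 0.037) and 0.31 (SE 0.036), and Mgp fell by 0.64 (SE 0.10). Combo200 and Combo2000 are both compared with the same Oxali libraries, so their changes against Oxali are given here only side by side: 6.15 and 7.13 for Nlrc5 and 4.21 and 6.08 for Gbp3.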

How the data were processed

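The deposited table held raw read counts per gene for 12 libraries (55216 genes). Per the labels, poly(A) RNA was sequenced with a stranded kit, and the processing notes list STAR 2.7.3a and RSEM 1.3.0 on GRCm38. The study's methods name featureCounts for counting, and its strand setting is not given in the sources used here, so reads of overlapping genes may be misplaced. Genes were filtered with filterByExpr (minimum count 10, total 15), which left 13177, and scaled by TMM. All 12 libraries were fitted with edgeR 4.0.16 (quasi-likelihood, 1 mean per group, SE as the log2 fold change over the root of F), with adjusted p under 0.05 as a call and DESeq2 1.42.0 as an alternative. The script recovered known changes in simulated data.

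The comparison, gene lists and named genes were chosen with earlier results of these data known. Named are the 3 markers, the 15 largest rises and 10 largest falls (mean of at least 1 log2 CPM, groups not overlapping), the 5 largest gains and losses in CPM, the 5 largest interactions each way and members of the 23 lists. Promoters came from RefSeq (GRCm38.p6). Library totals were 18749975 to 25931516 counts. Alternatives were DESeq2, other scalings, filters, fits, a replicate block, a length and GC correction, each library left out, and the agent label. Some genes of the fixed lists are counted but not reported here by name.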

Additional observations from a re-analysis of the deposited data

Results flagged for a closer look

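Of 130 tested genes named above from the rule or the lists, 44 differed by the interaction test. This test compares the log2 response to IFNγ with and without Oxali, with groups and doses taken from the titles. With Oxali present, 38 had a higher value and 6 a lower one. The naming rule includes the largest interactions each way, so part of the 44 follows from the choice of genes. These counts therefore carry no test. Over all 13177 genes tested, the interaction was positive for 280 (2.12%) and negative for 79 (0.6%). Among signalling genes the difference was 1.02 for Irf9, 0.93 for Stat2 and 0.76 for Stat3. Regulators followed with 2.55 for Il18bp, 2.25 for Irf8, 0.88 for Irf1, 0.67 for Trim21 and 0.31 for Irf2. For GTPases it was 5.85 for Gm12250, 1.53 for Gbp2, 1.20 for Irgm1, 1.06 for Tgtp1 and 0.85 for Igtp.

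In class I presentation it was 0.97 for H2-K1, 0.76 for B2m, 0.58 for Psmb10, 0.57 for Tapbp, 0.53 for H2-D1, 0.41 for Psme2 and 0.33 for Psme1. Antiviral genes and sensors differed by 1.94 for Ifit3, 1.19 for Parp14, 0.93 for Bst2, 0.92 for Dtx3l, 0.80 for Ifitm3, 0.70 for Parp9, 0.48 for Ddx58, 0.47 for Tlr3 and 0.36 for Ifit2. Chemokine, checkpoint and effector genes differed by 3.22 for Cxcl10, 2.68 for Mpeg1, 2.28 for Xdh, 1.92 for Cd274, 1.87 for C1ra, 1.81 for Ido1, 0.48 for Wars and 0.35 for Mlkl.

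Ifit2 was not called in Combo2000 against Oxali, and its log2 fold change with IFNγ alone was -0.30. Mgp differed by 0.75 with a fall in both settings, from 29.3 and 26.8 CPM in Ctrl to 9.38 and 9.28 CPM in IFN2000. The 6 lower values were -1.42 for Bc1, -1.30 for Krt79, -1.19 for Col16a1, -0.86 for Aldh1l2, -0.72 for Pycr1 and -0.33 for Ulbp1. All of these genes except Ulbp1 were among those picked for their large negative interactions. IFN2000 replicate 2 held more T cell marker reads (15.1 CPM summed) than replicate 3 (0.446 CPM). With 1 of the 8 libraries left out, 29 of the 44 interactions (without Ctrl replicate 1 or Ctrl replicate 2) to 44 (without IFN2000 replicate 3) were called, and 38 without IFN2000 replicate 2. In all, 25 kept their call without each library. The 19 that did not were those of Aldh1l2, Bc1, Cd274, Col16a1, Cxcl10, Ddx58, Gbp2, Ifit2, Ifit3, Igtp, Irf2, Irf8, Krt79, Mgp, Mlkl, Psme1, Pycr1, Trim21 and Ulbp1. No group had enough libraries to look for a single library far from its group.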

How the results depend on the processing

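For Combo2000 against Oxali, DESeq2 called 268 genes higher and 64 lower, and the correction for length and GC content 447 and 432. Requiring at least a 2-fold change left 156 and 5. Leaving out 1 library gave 275 to 312 higher and 38 to 63 lower. With the Oxali group taken from the agent label the counts were 4790 and 4440. The replicate numbers do not pair the libraries (correlations of deviations -0.22 to 0.092, and Combo2000 and Oxali share only number 2). As a replicate block they gave 291 and 40 for this comparison, 216 and 50 for the interaction, 137 and 13 for the dose step and 508 and 563 for IFN2000 against Ctrl, and they ended the interaction calls of Col16a1, Cxcl10 and Ulbp1 (adjusted p 0.0658, 0.0648 and 0.0571) among the named genes.

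For the interaction, DESeq2 called 152 positive and 47 negative, upper-quartile scaling 216 and 150, no filter on low counts 626 and 159, a fit of only the groups compared 196 and 45, the length and GC correction 300 and 310, and leaving out 1 library 90 to 636 and 12 to 399. For Combo2000 against Combo200, DESeq2 called 98 higher and 9 lower, no filter gave 46 lower, a mean of at least 50 counts 14, only the groups compared 34, the length and GC correction 72, and leaving out 1 library 105 to 112 higher and 2 to 5 lower. For IFN2000 against Ctrl, DESeq2 called 744 and 618, and leaving out 1 library gave 325 to 1670 higher and 321 to 1294 lower. The cause of these shifts was not tested, apart from fewer samples or other genes in the fit.

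Among 130 genes named from the rule or the lists, 1425 of 1543 recomputed log2 fold changes kept their direction and their side of the threshold, 108 lost the call, 7 gained one and 3 changed sign. The sign changes were in genes that were not called. Cdkn1a had -0.0063 and Ifngr1 -0.036 with the length and GC correction, and Ifngr1 -0.015 with the block. With the agent label further signs changed, for Bak1 (-0.14), Bc1 (0.68), Ccl9 (4.71), Col16a1 (1.90), Jak2 (0.63), Padi2 (0.98), Pdia3 (-0.17), Phlda1 (0.64), Pmaip1 (1.24), S100a4 (0.19), Socs3 (-0.16) and Ypel3 (0.21). With 2 libraries a group an exact permutation test cannot go below p = 0.333, so every test borrows the spread of all groups. A library left alone in its group is assumed to vary like the other groups.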

Other observations

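The 23 gene lists held 124 of the 444 genes called higher and 6 of the 130 called lower, which leaves 320 and 124 in no list. The following were chosen after their values were seen and carry no test beyond that of all genes. Of the 320, 60 rose at least 2-fold. Batf2, a transcription factor of the AP-1 family, went from 0.0461 and 0 CPM in Oxali to 5.45 and 5.09 CPM in Combo2000, and Ubd, the ubiquitin-like FAT10, from 0.138 and 0.0954 to 5.82 and 6.42 CPM. Ly6a, which encodes the surface protein Sca-1, had a log2 fold change of 1.80 (SE 0.058), and Ly6c1 of the same family one of 1.11 (SE 0.051). Both were lower in Oxali than in Ctrl. Ly6a read 132 and 123 CPM in Ctrl, 24.1 and 23.7 CPM in Oxali and 79.2 and 87.6 CPM in Combo2000. Ly6c1 read 76.9 and 79.4 CPM in Ctrl, 43.0 and 39.5 CPM in Oxali and 88.5 and 89.1 CPM in Combo2000. Ube2l6, the conjugating enzyme of ISG15, rose by 1.41 (SE 0.059), Lgals3bp by 1.85 (SE 0.076), Slc2a6, a sugar transporter, by 2.16 (SE 0.093) and the interleukin 15 receptor chain Il15ra by 1.42 (SE 0.10).

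Some subunits of the standard proteasome rose by small amounts. Of 34 genes with names of proteasome subunits tested outside the immunoproteasome, 9 were called higher and none lower, beside 3.37% and 0.987% of all genes, with log2 fold changes of 0.14 (Psmc3) to 0.47 (Psma5) among those called and a median of 0.074 over the 34. Psma2 read 139 and 141 CPM in Oxali and 167 and 173 CPM in Combo2000. With IFNγ alone the median of the same genes was 0.15 and 22 were called higher, beside 8.39% of all genes. Their calls were not recomputed with libraries left out.

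Among the genes called lower, Ddit4, an inhibitor of mTORC1, had a log2 fold change of -0.30 (SE 0.080), Ulk1, a kinase that starts autophagy, -0.20 (SE 0.045), Tsc22d3, a glucocorticoid target, -0.25 (SE 0.044), Arrdc3 -0.28 (SE 0.077) and Klhl24 -0.40 (SE 0.084). Klhl24 stood at 27.5 and 22.9 CPM in Ctrl and 8.61 and 8.70 CPM in IFN2000, and its interaction was 1.14 (SE 0.14, edgeR adjusted p 3.61e-05). Arg1, an arginase, and Spp1, which encodes osteopontin, fell by 0.25 (SE 0.068) and 0.14 (SE 0.037).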
